A study of Mus musculus with 6 samples.

Results

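Of the 170 tRNA-derived fragments (tRFs) that the deposited table lists as decreased in db/db islets, 16 come from nuclear tRNAs other than tRNA-Glu-TTC, and they are described here. They were taken as every listed tRF whose host tRNA is neither mitochondrial nor tRNA-Glu-TTC; the rest of the table holds 147 fragments of mitochondrial tRNAs (mt-tRFs) and 7 of nuclear tRNA-Glu-TTC. Pancreatic islets of 3 male db/db mice (genotype label BKS(D)-Leprdb/JOrlRj_db/db, with both copies of the leptin receptor gene mutated) were compared with those of 3 male db/+ mice (BKS(D)-Leprdb/+/JorlRj, which keep 1 functional copy). All mice were 16 weeks old and on chow diet, and each gave 1 small-RNA library from hand-picked islets. Since the controls carry the mutation too, no mouse without it was in the comparison. The question was how the islet tRF profile differs in db/db mice.

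The table holds tRFs only, so the identity of the tissue could not be checked against islet genes, and in bulk islets fewer cells of a type and less RNA per cell cannot be told apart. Together the 16 tRFs drew 119, 368 and 410 reads in the db/db libraries, against 1704, 1698 and 682 in the db/+ libraries (replicates 1, 2 and 3 in each case). These sums are not sequencing depths, which are unknown here. Levels are given below as normalized reads, that is, reads divided by the DESeq2 size factor of the library, and since 1 read spans a whole fragment they need no correction for length. The factors of db/db replicates were 0.509, 1.01 and 1.20, and those of db/+ replicates 1.68, 1.59 and 0.668, so that 1 read weighs 1.96 normalized reads in db/db replicate 1 and 1.497 in db/+ replicate 3. The authors put these tRFs in the list because they were lower in these same db/db libraries. Their decrease is therefore a description of how they were chosen, and the tests on it are not independent evidence.

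Nuclear tRNAs are made by RNA polymerase III, trimmed at both ends, given a CCA tail at the 3′ end that the gene does not encode, and heavily modified before they carry amino acids to the ribosome. They fold into an acceptor stem and 3 hairpin arms: the D arm, the anticodon arm and the T arm. Endonucleases such as angiogenin, which cuts in the anticodon loop, or Dicer can cleave them into fragments that end in the anticodon loop (tRHs), shorter end fragments (tRFs in the narrow sense) or internal pieces. Because many nuclear tRNAs are encoded by several genes of identical sequence, a fragment usually cannot be assigned to 1 gene.

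The sequences show where in its tRNA each of the 16 fragments begins and stops. They are taken from the deposited table and written 5′ to 3′ as DNA letters. Capitals mark bases of the anticodon, bases of the CCA tail at the 3′ end and, in tRNA-His, the added G at the 5′ end. A name gives the amino acid and the anticodon of the parent tRNA, then the length, and nucleotide numbers below count along the tRNA from its 5′ end. The 3′ fragments, with the 3′-tRH of tRNA-Arg-TCG first, are:
Arg-TCG 42 nt: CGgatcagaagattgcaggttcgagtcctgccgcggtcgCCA
Ser-CGA 29 nt: cgcaggttcgaatcctgctcacagcgCCA
Ser-CGA 24 nt: gttcgaatcctgctcacagcgCCA
Gly-ACC/Val-AAC/Val-CAC 19 nt: gaaaccgggcggaaacaCC
Gly-ACC/Val-AAC/Val-CAC 18 nt: aaaccgggcggaaacaCC
Gly-ACC/Val-AAC/Val-CAC 17 nt: aaaccgggcggaaacaC
Gln-CTG 52 nt from 22: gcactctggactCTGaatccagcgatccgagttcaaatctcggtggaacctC
Gln-CTG 52 nt from 23: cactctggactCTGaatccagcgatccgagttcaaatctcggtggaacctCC
Gln-CTG 48 nt: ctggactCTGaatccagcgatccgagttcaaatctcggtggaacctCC

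The 5′-tRH of tRNA-His-GTG and the 6 internal fragments, which reach neither end of the tRNA, are:
His-GTG 36 nt: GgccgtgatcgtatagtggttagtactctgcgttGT
His-GTG 24 nt: tcgtatagtggttagtactctgcg
Lys-CTT 28 nt: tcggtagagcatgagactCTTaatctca
Gly-GCC 37 nt: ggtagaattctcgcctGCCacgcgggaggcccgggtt
Val-CAC 28 nt: ttcgcctCACacgcgaaaggtccccggt
Leu-CAG 33 nt: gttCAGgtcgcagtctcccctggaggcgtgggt
Asp-GTC 29 nt: gcgggagaccggggttcgattccccgacg

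By the authors' classes these are 8 3′-tRFs from 3 parents, 1 3′-tRH, 1 5′-tRH and 6 internal tRFs from 6 parents. The 16 fragments come from 10 parents, whose names in the table stand for 70 different host genes on 13 chromosomes. Here tRNA-Gly-ACC, tRNA-Val-AAC and tRNA-Val-CAC, which share 3′ fragments, count as 1 parent. tRNA-Val-CAC is also a parent of its own by its internal fragment, and these 2 parents have host genes in common. tRNA-Arg-TCG (chromosome 7) and tRNA-Ser-CGA (chromosome 11) have 1 host gene each. At the other extreme the internal fragments of tRNA-Asp-GTC and tRNA-Gly-GCC each fit 13 genes, and the 3′ fragments shared by tRNA-Gly-ACC, tRNA-Val-AAC and tRNA-Val-CAC fit 12. All 9 fragments of the 3′ side end in the CCA tail, 3 with the whole tail, 4 with CC and 2 with the C alone. Each of them therefore reaches past the end of the mature tRNA that the gene encodes. Whether the base after a host gene is itself a C was not checked, which matters most for the 2 that end in the C alone. The whole anticodon lies in 7 fragments and none of it in another 7. The other two are the tRHs, both of which have an end inside the anticodon: the 3′-tRH of tRNA-Arg-TCG opens at its second base (nucleotide 35), and the 5′-tRH of tRNA-His-GTG closes after its second base.

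For 3 parents the position in the genome could be read from gene start regions of RefSeq (GRCm38.p6) that happen to hold a tRNA gene. The host of the 3′-tRH of tRNA-Arg-TCG is n-TRtcg5, on the plus strand at chr7:79466419-79466491. The encoded part of the fragment, 39 bases, covers chr7:79466453-79466491 and lies 180 to 218 bases before the start of Polg, the gene of the mitochondrial DNA polymerase, which runs on the other strand. The gene is shown with the fragment in capitals:
n-TRtcg5: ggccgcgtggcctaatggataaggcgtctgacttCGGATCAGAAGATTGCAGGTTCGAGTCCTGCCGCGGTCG
One of the genes that fit the fragments of tRNA-Val-CAC is n-TVcac9, on the minus strand at chr13:23446142-23446214, within the region before the start of Gm46404. The internal fragment, in capitals, covers chr13:23446161-23446188, from the anticodon stem to the first base of the T loop:
n-TVcac9: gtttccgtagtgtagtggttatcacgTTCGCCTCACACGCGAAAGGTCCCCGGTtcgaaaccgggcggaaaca
The encoded part of the 18-nt 3′ fragment matches the last 16 bases of the same gene, chr13:23446142-23446157, so that both match this gene. Between the 2 fragments lie 3 bases that neither covers. One gene that fits the 24-nt fragment of tRNA-His-GTG, n-THgtg7, lies on the plus strand at chr3:96452495-96452566, and the fragment covers chr3:96452502-96452525. The base before n-THgtg7 is C, while the 36-nt tRH begins with the G that the enzyme THG1 adds to tRNA-His after transcription.

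All 16 tRFs had a lower mean in db/db than in db/+ islets, and 15 passed edgeR's quasi-likelihood test (adjusted p no higher than 0.05, with a decrease of 2-fold or more). Over the whole list 97.6% passed, and nothing is read from the count, since the list was chosen on this contrast. In normalized reads the groups did not overlap in any of the 16, with the db/db libraries below, and the same held for 94.7% of the list. For 3 fragments this rests on the size factors. Raw reads in db/+ replicate 3 and db/db replicate 3 were 8 and 8 for Lys-CTT, 12 and 15 for Leu-CAG, and 65 and 76 for Ser-CGA 24 nt. The log2 fold changes ran from -2.50 to -1.32 for the 15 fragments with reads in db/db islets, and the median over the 16 was -2.02, against -2.42 over all 170. By mean level the 16 ranked between 19 and 165 of 170. Their median was 27.8 normalized reads, close to the 27.7 of the list. The coefficient of variation between mice ran from 16.1% to 109.8% in db/db islets (median 31.3%, over the 15 with reads there) and from 8.07% to 93.0% in db/+ islets (median 17.7%).

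By parent, the largest summed level was that of the 2 fragments of tRNA-Ser-CGA, which decodes the serine codon TCG. Both end in the full CCA tail and differ only in where they begin. The 29-nt fragment had 64.8, 83.6 and 63.2 normalized reads in db/db replicates 1, 2 and 3, against 212, 166.9 and 149.7 in db/+ replicates 1, 2 and 3. The groups did not overlap, but its log2 fold change of -1.32 (standard error, SE, 0.63) was the smallest of the 16 and missed the threshold (adjusted p = 0.0561 from edgeR). It was past the threshold only without db/+ replicate 3 (log2 fold change -1.42, adjusted p = 0.0469 from edgeR) and by limma and by DESeq2, the test that put it in the list. The 24-nt fragment starts 5 bases further in, at the first base of the conserved GTTCGA of the T arm. It had 23.6, 46.8 and 63.2 normalized reads in db/db against 123.9, 137.4 and 97.3 in db/+ replicates. Its log2 fold change of -1.41 (SE 0.62, adjusted p = 0.0428 from edgeR) was past the threshold in full but not without db/db replicate 1, 2 or 3 or db/+ replicate 1 or 2 (adjusted p = 0.0600 to 0.146 from edgeR). Reads of the 24-nt fragment for each read of the 29-nt one numbered 0.364, 0.560 and 1.00 in db/db and 0.584, 0.823 and 0.650 in db/+ libraries, ranges that overlap. Summed, the 2 fragments made up 36.7% of the mean level of the 16 in db/db islets and 28.6% in db/+ islets.

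Second in summed level were 3 short fragments from the 3′ end shared by tRNA-Val-AAC, tRNA-Val-CAC and a tRNA-Gly-ACC. They begin in the T loop, at nucleotide 57 in the 19-nt and at nucleotide 58 in the 18-nt and 17-nt fragment. Nucleotide 58 of many nuclear tRNAs is 1-methyladenosine, a modification that stops reverse transcriptase and that the pretreatment of this RNA was meant to remove. All 3 fragments contain nucleotide 58 itself. The part of the modification in these ends was not tested. The 18-nt fragment had 29.5, 41.8 and 22.4 normalized reads in db/db against 110.2, 90.4 and 118.3 in db/+ replicates, and the 19-nt fragment had 29.5, 36.8 and 25.8 in db/db against 72.7, 84.1 and 145.2 in db/+ replicates. The 17-nt fragment, which lacks the last C of the 18-nt one, had 7.86, 10.9 and 10.8 normalized reads in db/db against 39.9, 39.5 and 34.4 in db/+ replicates. It had the smallest spread between db/+ mice of the 16. All were lower in every db/db mouse, with log2 fold changes of -1.76 (SE 0.59, adjusted p = 0.0135 from edgeR) for the 18-nt, -1.70 (0.59, 0.0164) for the 19-nt and -1.91 (0.47, 0.00445) for the 17-nt fragment. Without db/db replicate 3 the 18-nt and 19-nt fragments missed the threshold (adjusted p = 0.0706 and 0.0694 from edgeR). In the 18-nt fragment against the 19-nt one, the reads stood at 1.00, 1.14 and 0.871 in db/db and at 1.52, 1.07 and 0.814 in db/+ libraries, ranges that overlap.

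The 3 fragments of tRNA-Gln-CTG were long and low. They span the anticodon arm and the T arm and differ by a few bases at the start, at nucleotides 22, 23 and 27, and by the last base at the end. The fragment from nucleotide 22 had 5.89, 10.9 and 8.31 normalized reads in db/db against 39.9, 34.5 and 29.9 in db/+ replicates. That from nucleotide 23 had 1.96, 4.98 and 5.82 in db/db against 20.8, 25.1 and 19.5 in db/+ replicates. The 48-nt fragment had 3.93, 5.97 and 7.48 normalized reads in db/db against 23.8, 25.1 and 29.9 in db/+ replicates. In each, the lowest db/+ mouse was at least 2.74 times the highest db/db mouse, yet the db/db values rest on 1 to 11 reads a library. The log2 fold changes were -2.01 (SE 0.49), -2.23 (0.55) and -2.09 (0.50), all with an adjusted p of 0.00445 from edgeR, and all 3 passed whichever 1 library was left out.

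The 3′-tRH of tRNA-Arg-TCG, which runs from the anticodon to the full CCA tail, had 15.7, 39.8 and 41.6 normalized reads in db/db replicates, against 110.8, 97.9 and 83.8 in db/+ replicates. Its lowest db/db mouse, replicate 1, stood on 8 reads, and the highest db/db mouse was still below every db/+ mouse. The log2 fold change was -1.57 (SE 0.60, adjusted p = 0.0243 from edgeR), and it missed the threshold without db/db replicate 2, db/+ replicate 1 or db/+ replicate 2 (adjusted p = 0.0515, 0.0697 and 0.0728 from edgeR).

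The 36-nt 5′-tRH of tRNA-His-GTG was the only one of the 16 that holds the 5′ end of its tRNA. It had 33.4, 43.8 and 49.1 normalized reads in db/db replicates against 58.4, 114.9 and 203.6 in db/+ replicates. The db/db mice lay close together while the db/+ mice differed 3.49-fold, and db/+ replicate 1 was only 1.19 times the highest db/db mouse. Its log2 fold change of -1.56 (SE 0.66, adjusted p = 0.0352 from edgeR) missed the threshold when any 1 library other than db/+ replicate 1 was left out (adjusted p = 0.0761 to 0.122 from edgeR), and was -1.03 without db/+ replicate 3. The 24-nt internal fragment lies wholly within this tRH, from nucleotide 8 to 31, and so covers the D arm and the 5′ strand of the anticodon stem. It had 7.86, 9.95 and 18.3 normalized reads in db/db against 63.7, 50.8 and 38.9 in db/+ replicates, and its log2 fold change was -2.04 (edgeR adjusted p = 0.00503, SE 0.54). The order of the db/+ mice was the reverse of that of the tRH: reads of the internal fragment for each read of the tRH numbered 0.235, 0.227 and 0.373 in db/db replicates, against 1.09, 0.443 and 0.191 in db/+ replicates.

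The internal fragment of tRNA-Leu-CAG runs from nucleotide 32, at the end of the 5′ strand of the anticodon stem, through the variable arm to the T loop. It had 7.86, 10.9 and 12.5 normalized reads in db/db against 42.9, 107.3 and 17.96 in db/+ replicates. The db/+ mice differed 5.97-fold, and the log2 fold change of -2.40 (SE 0.67, adjusted p = 0.00633 from edgeR) was -1.53 without db/+ replicate 2 (adjusted p = 0.0348 from edgeR). The fragment of tRNA-Asp-GTC begins 3′ of the anticodon, at nucleotide 39, and takes in the T arm up to nucleotide 67. It had 0, 11 and 5 reads in db/db against 60, 44 and 16 reads in db/+ replicates. The smallest db/+ level was 2.19 times the highest db/db level, which was that of db/db replicate 2. The log2 fold change, -2.37 with an SE of 0.68 (adjusted p = 0.00703 from edgeR), was -3.41 without that library.

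The fragments of tRNA-Lys-CTT and tRNA-Val-CAC both contain the whole anticodon, with more of the D arm in the fragment of tRNA-Lys-CTT and more of the T side in that of tRNA-Val-CAC. That of tRNA-Lys-CTT had 0, 2.99 and 6.65 normalized reads in db/db against 30.4, 21.3 and 12.0 in db/+ replicates. That of tRNA-Val-CAC had 1.96, 5.97 and 1.66 in db/db against 19.7, 20.1 and 14.97 in db/+ replicates. Neither exceeded 8 reads in any db/db library, and db/+ replicate 3 had only 8 reads of the tRNA-Lys-CTT fragment and 10 of the tRNA-Val-CAC fragment. The log2 fold changes were -2.50 (SE 0.70, adjusted p = 0.00653 from edgeR) for tRNA-Lys-CTT, or -3.46 without db/db replicate 3, and -2.44 (0.63, 0.00480) for tRNA-Val-CAC, or -3.30 without db/db replicate 2. Both passed whichever 1 library was left out.

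The internal fragment of tRNA-Gly-GCC, from the D loop at nucleotide 17 to nucleotide 53, was without a read in all 3 db/db libraries, while db/+ replicates 1, 2 and 3 had 17, 36 and 1. With a floor of 3 reads over the db/db group it was at least 12.4-fold lower in db/db islets. This bound was at least 7.82-fold, 6.92-fold and 6.95-fold without db/db replicate 2, db/db replicate 3 and db/+ replicate 2. It covers counting error only, and db/+ replicate 3 held a single read. The median over the 16 was -2.02 with this fragment at its bound too.

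Summed over the 16 fragments, the level was 233.8, 366.2 and 340.9 normalized reads in db/db replicates, against 1015, 1066 and 1021 in db/+ replicates. The sum varied less between db/+ mice than the level of any single fragment. On the log2 scale the difference between db/db and db/+ was -1.75, and the groups did not overlap (two-sided exact permutation test, p = 0.1, the lowest value 3 against 3 can give). Within the groups db/db replicate 1 held the lowest value in 11 of the 16 fragments and db/+ replicate 3 in 12, and these are the libraries with the smallest size factor of their group. In the rest of the list db/db replicate 1 was lowest in 113 of the 147 mt-tRFs and 3 of the 7 fragments of tRNA-Glu-TTC. For db/+ replicate 3 these counts were 78 and 3, but it was also the highest of its group in 56 of the 147 mt-tRFs.

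By class, the internal fragments had the lowest ratio of db/db to db/+. Their summed level was 17.7, 40.8 and 43.2 normalized reads in db/db replicates against 202.5, 249.8 and 109.3 in db/+ replicates, and the median log2 fold change of the 6 was -2.42. The 8 3′-tRFs summed to 167, 241.8 and 207 in db/db against 643.2, 603.1 and 624.2 in db/+ replicates, with a median log2 fold change of -1.84. These made up 60.7% to 71.4% of the 16 in db/db libraries and 56.6% to 63.4% in db/+ libraries. Internal fragments made up 7.56%, 11.1% and 12.7% in db/db libraries and 19.95%, 23.4% and 10.7% in db/+ libraries, with an overlap through db/+ replicate 3. Mean levels of the internal fragments were 5.70 to 33.2 normalized reads. The 3 3′-tRFs of tRNA-Gln-CTG, at 13.0 to 21.6, had log2 fold changes of -2.23 to -2.01. Class was not separated here from level or parent. The share of the 5′-tRH, the only 5′ fragment, was 14.3%, 12.0% and 14.4% in db/db against 5.75%, 10.8% and 19.9% in db/+ libraries. The difference of 1.39 percentage points was well within the spread of the db/+ mice (two-sided exact permutation test, p = 0.7) and changed sign without db/+ replicate 1.

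Since the fragments of 1 tRNA overlap, the levels of the listed fragments were also summed by parent and tested with limma on log2(sum + 1). Fragments called increased or unchanged are not in these sums, which therefore do not stand for all fragments of a tRNA. All 10 parents passed at an adjusted p of at most 0.05, as did 100% of the 30 parents in the list. Nothing is read from this count either, since every fragment summed was chosen on this contrast. The log2 fold changes of the 7 parents with reads in every library lay between -2.33 for tRNA-Val-CAC (-1.53 with a pseudocount of 5) and -1.36 for tRNA-Ser-CGA. That of tRNA-Gly-GCC, with no db/db read, was set by the pseudocount (-3.12 with 1 and -1.48 with 5) and is no measure of its size. Those of tRNA-Asp-GTC and tRNA-Lys-CTT, each without a read in db/db replicate 1, moved with it too. tRNA-Asp-GTC was at -2.91, or -3.29 and -1.91 with pseudocounts of 0.5 and 5, and at -1.92 and -3.71 without db/db replicates 1 and 2. tRNA-Lys-CTT was at -2.74, or -3.13 and -1.70 with those pseudocounts, and at -1.92 and -3.39 without db/db replicates 1 and 3. The adjusted p of the 10 ran from 0.00242 to 0.0201 (limma). The smallest standard error was that of tRNA-Gln-CTG, with 18.4 ± 5.75 normalized reads in db/db and 82.9 ± 3.07 in db/+ islets (SD, n = 3 each; log2 fold change -2.16, SE 0.34). For the valine and glycine 3′ fragments the sums were 71.8 ± 15.9 in db/db and 244.9 ± 46.1 in db/+ islets (SD, n = 3 each), for tRNA-Ser-CGA 115 ± 23.1 and 295.8 ± 45.1, and for tRNA-His-GTG 54.1 ± 13.0 and 176.8 ± 61.0. tRNA-Gly-GCC was lost without db/db replicate 1 or 3 or db/+ replicate 1 or 2 (adjusted p = 0.0614 to 0.0757). tRNA-Leu-CAG was lost without db/db replicate 1 (adjusted p = 0.0643), tRNA-Lys-CTT without db/+ replicate 1 (0.0506) and tRNA-Ser-CGA without db/+ replicate 2 (0.0593), all from limma.

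To see whether the 16 changed by as much as the other listed tRFs, their summed level was divided by that of each other set within the same library. The log2 ratio of their summed level to the 147 listed mt-tRFs was -3.14, -3.94 and -3.84 in db/db replicates and -3.50, -3.91 and -5.10 in db/+ replicates. The difference of 0.53 was within the spread (two-sided exact permutation test, p = 0.5) and was 0.06 without db/+ replicate 3, where listed mt-tRFs were at their highest. Against the 7 listed fragments of nuclear tRNA-Glu-TTC, the log2 ratio was -2.24, -1.83 and -1.73 in db/db and -1.68, -1.51 and -0.89 in db/+ replicates. The groups did not overlap there, with a difference of -0.57 (two-sided exact permutation test, p = 0.1, again the lowest possible). It was -0.34 without db/+ replicate 3, and the highest db/db mouse and the lowest db/+ mouse were 0.05 apart. Among the 7 fragments of tRNA-Glu-TTC, 1 had a mean level of 1217 normalized reads, against a median of 45.1, so it weighs most in their sum. Both sets were themselves listed as decreased on these libraries, so each ratio sets 1 decrease against another and has no unchanged RNA in it.

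The 16 were shorter and richer in G and C than the listed mt-tRFs. They were 17 to 52 nt long (median 29 nt), against 16 to 44 nt (27 nt) for tRNA-Glu-TTC and 18 to 55 nt (40 nt) for mt-tRFs. The GC content had a median of 60%, against 54.5% for tRNA-Glu-TTC and 35.5% for mt-tRFs. A whole T-arm motif GTTCNA, read on the strand of the tRNA only, stood in 7 of the 16 (43.8%), in 3 of the 7 fragments of tRNA-Glu-TTC (42.9%), in 3 of the 147 mt-tRFs (2.0%) and in 7.6% of the list. The class of the fragment differed from that of mt-tRFs too. By the authors' classes 1 of the 16 was a 5′ fragment and 9 were 3′ fragments. Among the 147 mt-tRFs 81 were 5′ and none were 3′ fragments, and among the 7 fragments of tRNA-Glu-TTC 3 were of each kind. These counts describe a list chosen by change, in which overlapping fragments of 1 tRNA repeat its sequence.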

How the data were processed

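The authors sequenced 1 small-RNA library of islets from each of 3 db/db and 3 db/+ mice. RNA was extracted with the miRNeasy micro kit and treated with the rtStar pretreatment kit, which removes amino acids and cyclic phosphates from 3′ ends, phosphorylates 5′ ends and demethylates 1-methyladenosine, 3-methylcytidine and 1-methylguanosine. Libraries were made with the QIAseq miRNA kit, so fragments with modifications that the treatment leaves in place may be read less often. Annotation by the authors used mitotRNAdb, GtRNAdb and tRNAscan-SE, called a tRF from 2 reads and compared the groups with DESeq2. The submitters' processing notes name FastQC. Not given in the sources used here are the aligner, the genome build and the use of molecular identifiers.

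The deposited counts are the authors' raw whole reads per tRF and library, without normalization. For each tRF the authors deposited a mean signal, the average of counts over DESeq2 size factors, and the 6 factors were solved from it (largest misfit 2.16e-12). The authors' log2 fold changes, their standard errors, test statistics and p-values were not used. tRFs called increased or unchanged were not analysed here. Replicates differed from each other by more than counting noise (chi-square per degree of freedom 2.91 to 65.1 over the list), so no library was counted as a copy. The labels number the mice otherwise than the paper does, and sources differ on the colony, so a number stands for 1 mouse of its group.

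Each tRF was tested in R 4.3.3 with edgeR 4.0.16 (quasi-likelihood test), with library sizes set by these factors, no filter and no covariate, and p-values adjusted by Benjamini-Hochberg over the 170 tRFs. Those had already been chosen by their change, so the adjusted p takes no account of the tRFs outside the list. Standard errors are the fold change over the square root of the test statistic. Sums by parent were tested with limma 3.58.1 with trend on log2(sum + 1). Single values were compared by the exact permutation test with SciPy 1.17.1 (Python 3.11.15, NumPy 2.4.6, pandas 2.3.3). Where a group had no read of a fragment, a floor of 3 reads over the group was used, which covers counting error only. In single libraries, 3 reads equal 2.49 to 5.89 normalized reads in db/db and 1.79 to 4.49 in db/+ islets. The edgeR step was tested on simulated counts in which only some of the tRFs changed. That setting differs from a list chosen by its decrease, so it does not show how the test behaves on such a list. Alternatives were DESeq2 1.42.0, limma on single tRFs, scalings over the list, other pseudocounts, a mean level of at least 10, stricter thresholds, a replicate block, overlapping fragments counted once and each library left out. Every one of the 16 fragments is named. The fragments, lists and tests were chosen with earlier results of these data known.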

Additional observations from a re-analysis of the deposited data

How the results depend on the processing

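Scaling over the listed tRFs, which centres a list chosen for its decrease, shifted the median log2 fold change of all 170 by 2.20 (TMM) or 2.05 (median of ratios). None of the 16 then passed edgeR's test by either scaling (0 and 0, with 1 at an unadjusted p of at most 0.05 in each), and 6 and 7 of the 16 lay below 0. On the TMM scale the log2 fold changes above 0 were 1.00 and 0.79 for the 29-nt and 24-nt fragments of tRNA-Ser-CGA, 0.80 and 0.12 for the 36-nt and 24-nt fragments of tRNA-His-GTG, 0.60 for tRNA-Arg-TCG, 0.65, 0.54 and 0.28 for the 19-nt, 18-nt and 17-nt valine and glycine fragments, and 0.14 and 0.067 for tRNA-Gln-CTG from nucleotide 22 and of 48 nt. These are changes relative to the list. By DESeq2 and by limma 16 of 16 passed, with a mean level of at least 10 it was 14 of 15, at an adjusted p of at most 0.01 it was 10, and with a decrease of at least 4-fold 9. Leaving out each library in turn gave 11 to 15 fragments by edgeR and 8 to 10 parents by limma. The 10 parents also passed with pseudocounts of 0.5 and 5 and without trend, and 9 of 9 with a mean level of at least 10. The difference in summed level stayed between -1.87 and -1.55 without each library, that to mt-tRFs between 0.06 and 0.86, that to tRNA-Glu-TTC between -0.73 and -0.34, and that of the 5′ share between -1.82 (without db/+ replicate 1) and 5.28 percentage points. Counting overlapping fragments once or requiring a mean level of 10 kept the direction of these 4 values.

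The labels do not say that a replicate number is shared between the groups. The correlations of the deviations of same-numbered libraries were 0.21, -0.26 and -0.22, so no pairing of the mice was assumed. With the replicate number as a block 13 of 16 fragments passed (not the 36-nt fragment of tRNA-His-GTG and both of tRNA-Ser-CGA) and 9 of 10 parents (not tRNA-Gly-GCC).

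Precision is limited by low counts, mostly in db/db islets: 3 of the 16 had no read in at least 1 db/db library.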
